A study of Equus caballus with 8 samples.

Results

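YAP1 and WWTR1 (which encodes TAZ) are paired transcriptional co-activators that bind DNA through the TEAD family of transcription factors. The genes described here are those of this pathway with CTGF, the matricellular growth factor that is its most used target gene. They were chosen by name, 10 genes in all (YAP1, WWTR1, TEAD1, TEAD2, TEAD3, CTGF, ANKRD1, AMOTL2, LATS2 and AJUBA), and all 10 had a row among the 15266 named genes of the deposited table. They were measured by RNA-sequencing of BM-MSCs (mesenchymal stem cells from equine bone marrow), stromal cells that adhere to plastic and were grown from the sternal marrow of horses D, J, L and W. The cells of each horse were grown as paired cultures to passage 3 or 4, which gave 4 libraries per group. One culture was in standard medium (untreated) and the other in the same medium with 1 ng/ml recombinant human TGF-β2. The labels have the exposure begin at isolation, whereas the methods count it in passages before sequencing, so its start is not certain. The donors were healthy adult Thoroughbreds or Thoroughbred crosses. Cells of both groups received low-glucose DMEM with fetal bovine serum and, by the study's methods, basic fibroblast growth factor, and they were not sorted before RNA extraction.

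In cells at low density or under tension, YAP and TAZ enter the nucleus, bind TEAD factors and switch on genes such as CTGF, CYR61 and ANKRD1. The Hippo kinases LATS1 and LATS2 phosphorylate YAP and TAZ, which holds them in the cytoplasm or leads to their breakdown, and LATS2 and AMOTL2 are themselves targets that feed back on the pathway. In fibroblasts and marrow stromal cells, SMAD factors downstream of TGF-β and YAP/TAZ-TEAD meet on several of the same genes, CTGF among them. Most of this control acts on the YAP and TAZ proteins, which RNA-sequencing does not measure.

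The libraries held 39184554 to 57228675 counted reads, so that a floor of 3 reads was 2.02 to 3.60 normalized counts, and no member fell near it. The untreated library of horse J stood apart from the other untreated libraries, with a mean root-mean-square log2 difference to them of 1.09 over the 14907 genes tested, against 0.847 to 0.899 for the other 3. The wider-pathway genes are the 48 tested genes of the Hippo, cofactor, target and CCN lists below that are not members. With all horses 10 of them were called, or 20.8%, and without horse J 14. Over all genes tested, 2108 were called with all horses, or 14.1%, and 2442 without horse J. Values without horse J are given beside the genes whose call then differed. The stromal marker sums ran from 161816 to 355467 normalized counts in untreated and from 172849 to 271837 in treated libraries, and 4 of 6 stromal markers passed an adjusted p of 0.05, ITGB1 higher and ENG, THY1 and PDGFRB lower, with only THY1 past the fold threshold. Of 7 haematopoietic markers, 5 had a row, with sums of 503 to 2674 normalized counts in untreated and 392 to 722 in treated libraries, mostly from CD68. SPI1 was at 0 in 1 library, and 1 of the 4 tested, ITGB2, was called lower with the horse as a block (limma adjusted p = 0.0347) and not without it (0.256). Of 5 endothelial markers, CDH5 and KDR had a row and summed to 7.10 to 26.3 normalized counts in untreated and 30.0 to 55.7 in treated libraries, and KDR was called higher. Of 5 genes of smooth muscle and myofibroblasts, 4 were called higher (ACTA2, TAGLN, CNN1 and DES, not MYH11). The 5 summed to 85648 to 305003 normalized counts in untreated and 345243 to 877802 in treated libraries. Of all genes tested, 30.9% passed an adjusted p of 0.05 and 14.1% were called, 6.83% higher and 7.31% lower. In these bulk samples a change in the number of cells of one kind cannot be told apart from a change in RNA per cell, and the part of these marker genes in the results below was not tested.

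Differences between treated and untreated cells were tested within horses, by limma on log2(normalized count + 1) with the horse as a block, and p-values were adjusted by the Benjamini-Hochberg method over all genes tested. Log2 fold changes (log2FC, treated minus untreated) are on this log2 scale and are given with their standard error (SE). A gene was called differentially expressed when its adjusted p was under 0.05 and its log2FC was above 1 or below -1. A gene with an adjusted p under 0.05 and a smaller change is described as changed but short of the fold threshold. Of the 10 members, 2 were called, both higher, where 14.1% of all genes tested were called, 6.83% higher and 7.31% lower. At an adjusted p under 0.05 with any fold, 4 members were higher (CTGF, ANKRD1, AJUBA, TEAD3) and 2 lower (YAP1, LATS2), against 30.9% of all genes, 15.7% higher and 15.3% lower. The median log2FC of the members was 0.52, and 0.01 over all genes tested.

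**Figure D1:**
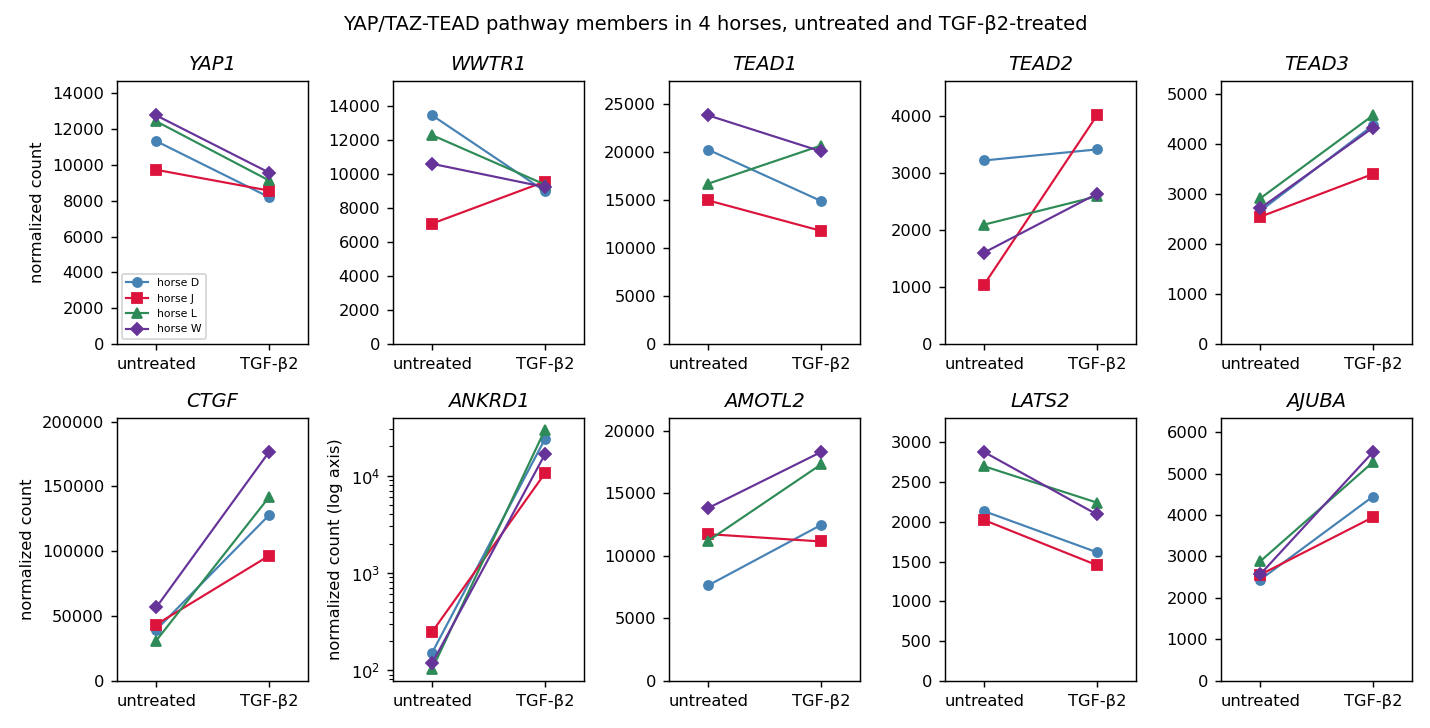
Normalized count (vertical axes, log axis for ANKRD1 only) of the 10 members in untreated and TGF-β2-treated cells, 1 line per horse, with colour and marker for horses D, J, L and W. ANKRD1 lay between 103 and 247 in the untreated libraries and between 10596 and 29708 in the treated ones, and the lines of CTGF, TEAD3 and AJUBA rose in all 4 horses, those of YAP1 and LATS2 fell in all 4, and those of WWTR1, TEAD1 and AMOTL2 crossed or diverged in direction.

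Among the co-activators, YAP1 fell in every horse by a small amount and WWTR1 did not pass the test. YAP1 had 11322, 9723, 12428 and 12758 normalized counts in the untreated libraries of horses D, J, L and W, and 8198, 8565, 9130.2 and 9570.4 in the treated ones. All treated libraries lay below all untreated ones. The mean went from 11558 ± 1369 to 8866 ± 606 (SD, n = 4), 0.767 of the untreated level. Over the 4 horses the log2FC of YAP1 was -0.38 with an SE of 0.09 and a limma adjusted p of 0.0277, short of the fold threshold. With horse D, L or W left out, the log2FC was -0.35, -0.35 and -0.36, and the limma adjusted p was 0.127, 0.0920 and 0.111. The change was smallest in horse J, where the treated library held 0.881 of the untreated count, against 0.724 to 0.750 in the others.

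WWTR1, which encodes TAZ, had 13448, 7089, 12283 and 10601 normalized counts in untreated cells of horses D, J, L and W. In treated cells it had 8992, 9556, 9381 and 9234. The treated libraries were close together, with a SD of 239 against 2769.6 in the untreated ones, and the groups overlapped because of the low untreated library of horse J. The log2 change was -0.58, -0.39 and -0.20 in horses D, L and W and 0.43 in horse J. With all horses the log2FC was -0.18 (95% interval -0.62 to 0.25), with a limma adjusted p of 0.461. Without horse J it was -0.39 with an adjusted p of 0.0410.

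The TEAD factors differed in direction. TEAD1 had 20228, 14953, 16689.6 and 23795 normalized counts in untreated cells of horses D, J, L and W, and 14895, 11790.3, 20655 and 20053 in treated cells. It was lower in horses D, J and W and higher in horse L, and the groups overlapped. Its log2FC was -0.18 (95% interval -0.55 to 0.18), with a limma adjusted p of 0.386. Under total scaling TEAD1 was at -0.49, with a limma adjusted p of 0.0354.

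TEAD2 had 3227, 1048, 2100.3 and 1610.2 normalized counts in the untreated and 3421, 4019, 2596 and 2642 in the treated libraries of horses D, J, L and W. All 4 horses had a higher treated value, but by very different amounts, from 0.08 on the log2 scale in horse D to 1.94 in horse J. The log2FC of 0.76 did not pass the test (limma adjusted p = 0.117), and without horse J it was 0.37 (adjusted p = 0.0907).

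TEAD3 was more uniform. It had 2658, 2543, 2909.7 and 2712 normalized counts in untreated and 4369, 3397, 4567 and 4321 in treated cells of horses D, J, L and W. Every treated library lay above every untreated one, and the level in untreated cells varied little between horses (2706 ± 153, SD, n = 4). Its log2FC was 0.61 with an SE of 0.09 and a limma adjusted p of 0.00676, a rise short of the fold threshold that was 1.34-fold in horse J and 1.57-fold to 1.64-fold in the others. TEAD4, which is not a member and was chosen after its values were seen, moved the other way. It had a log2FC of -0.69 and a limma adjusted p of 0.0221 with the horse as a block, and 0.0941 without it.

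CTGF and ANKRD1 were the called members. CTGF, the secreted matricellular protein also named CCN2, had 39392, 43459, 31018 and 56635 normalized counts in untreated cells of horses D, J, L and W. In treated cells it had 127755, 96499, 141660.5 and 176445. The lowest treated library was thus well above the highest untreated one. Per library the gene took 0.0739% to 0.139% of the counted reads without treatment and 0.213% to 0.333% with it. The rise was 3.24-fold in horse D, 2.22-fold in J, 4.57-fold in L and 3.12-fold in W, with a mean log2FC of 1.67, an SE of 0.20 and a limma adjusted p of 0.00444. It ranked 548 of the 1018 genes called higher.

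ANKRD1, a nuclear and sarcomeric ankyrin repeat protein best known from the heart and a classical YAP/TAZ target, changed by far more. It had 151, 247, 103 and 118 normalized counts in the untreated libraries of horses D, J, L and W, or 0.000245% to 0.000641% of the counted reads. The treated libraries held 23837, 10596, 29708 and 16623 normalized counts, or 0.0234% to 0.0554% of reads. ANKRD1 rose 157-fold in horse D, 42.9-fold in J, 289-fold in L and 141-fold in W. This gave a log2FC of 7.00 (SE 0.43, 95% interval 5.94 to 8.06) with a limma adjusted p of 0.00124, which ranked 7 of the 14907 genes tested. Horse L had the lowest untreated and the highest treated value of ANKRD1, and horse J the highest untreated and the lowest treated value.

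The remaining members regulate the pathway. AJUBA, a LIM-domain scaffold of cell junctions that binds and restrains LATS kinases, had 2438, 2559, 2881 and 2567 normalized counts in untreated and 4445, 3946, 5273 and 5517 in treated cells of horses D, J, L and W. The groups did not overlap. AJUBA had a log2FC of 0.87 (SE 0.10, 95% interval 0.62 to 1.12) with a limma adjusted p of 0.00429, a rise short of the fold threshold that passed a log2 change of 1 in horse W alone, with 1.10.

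LATS2, the kinase that phosphorylates YAP and TAZ, had 2134, 2022, 2699 and 2877 normalized counts in untreated and 1618, 1455, 2242 and 2093 in treated cells of horses D, J, L and W. The groups overlapped because the horses differed in level, but LATS2 fell in each horse, to 0.720 to 0.831 of the untreated count. The log2FC was -0.40 with an SE of 0.08. The limma adjusted p was 0.0180 with the horse as a block and 0.143 without it. For LATS1 the log2FC was -0.05 with an adjusted p of 0.759, and it was -0.15 without horse J and 0.014 without horse W.

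AMOTL2, an angiomotin-family scaffold that binds YAP and holds it at junctions, had 7638, 11739.7, 11210.2 and 13825 normalized counts in untreated and 12471, 11154, 17314 and 18305 in treated cells of horses D, J, L and W. It was higher in horses D, L and W, by 0.40 to 0.71 on the log2 scale, and close to level in horse J, at -0.07. The log2FC of 0.42 (95% interval 0.05 to 0.79, before adjustment) had a limma adjusted p of 0.0856. Without horse J it was 0.58 with an adjusted p of 0.0121.

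**Figure D2:**
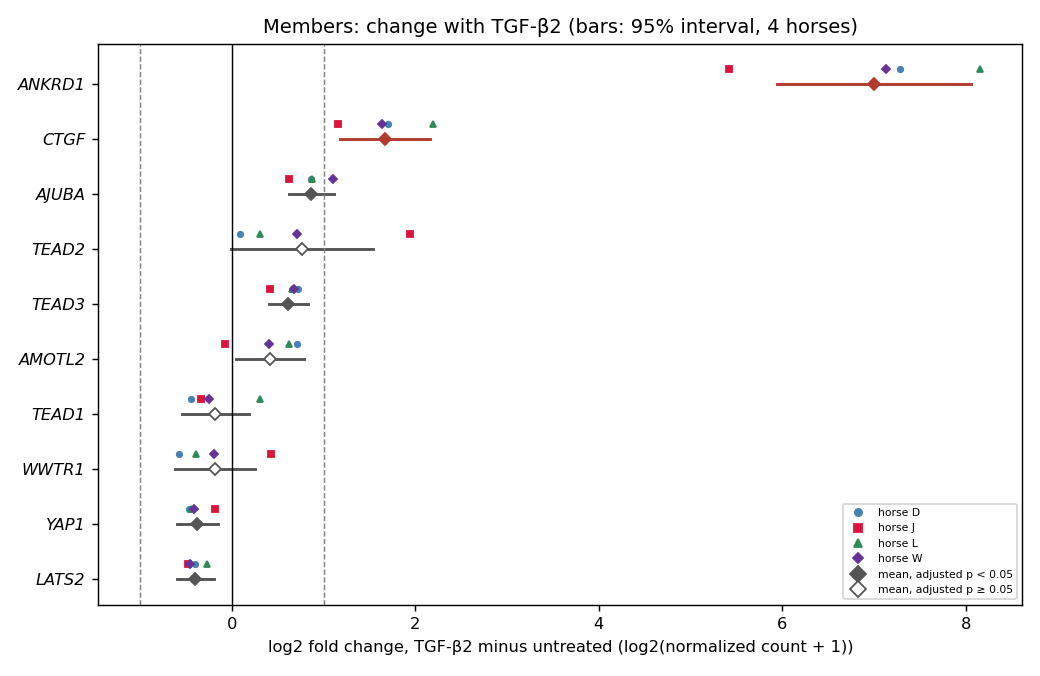
Log2FC (horizontal axis, TGF-β2 minus untreated) of each member. Diamonds are means over 4 horses with 95% intervals before adjustment, filled where the limma adjusted p was under 0.05 and red where the gene was called, small markers are single horses and dashed lines the fold threshold. ANKRD1 at 7.00 and CTGF at 1.67 lay past the threshold. Horse J was the lowest point for ANKRD1, CTGF, AJUBA, TEAD3, AMOTL2 and LATS2, and the highest for YAP1, WWTR1 and TEAD2.

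Horse J had the smallest change of any horse for each of the 4 members that were higher at an adjusted p under 0.05. It had the largest fall of LATS2, at -0.47 on the log2 scale, and the largest rise of TEAD2, at 1.94. Among all 1018 genes called higher, horse J had the smallest change for 34.7% and horse L for 37.6%. Those genes also passed the fold threshold, which TEAD3 and AJUBA did not, so the sets are not alike. The groups did not overlap for 5 of the 10 members, 4 higher and 1 lower, against 27.8% of all genes tested, 13.9% higher and 13.9% lower, and 7 members changed the same way in all 4 horses, against 51.9%.

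Ratios of 2 genes within a library do not depend on how libraries are scaled. Of 5 ratios chosen after the values were seen, 4 moved the same way in every horse. The log2 ratio of TEAD3 to TEAD1 was higher after treatment by 0.80 ± 0.34 (SD, n = 4 horses), and that of TEAD3 to TEAD4 by 1.31 ± 0.24. The log2 ratio of CTGF to CYR61 was higher by 1.45 ± 0.37, and in reads it went from 0.715 to 1.25 in untreated to 2.39 to 2.90 in treated libraries. For LATS2 to LATS1 the log2 ratio changed by -0.35 ± 0.27. The exact paired permutation test (two-sided) gave p = 0.125 for each of these 4, which is the smallest value it can give with 4 horses. The ratio of WWTR1 to YAP1 did not move one way, with a log2 change from -0.11 to 0.61 between horses (exact permutation p = 0.375).

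A list of 22 YAP/TAZ target genes was also looked at, all of which had rows and were tested. These are transcript levels, and the activity of YAP and TAZ was not measured. It shares CTGF, ANKRD1, AMOTL2 and LATS2 with the members. Of the 22, 5 were called higher (ANKRD1, F3, TGFB2, CCDC80 and CTGF), 1 was called lower (MYOF) and 16 were not called, or 27.3% called against 14.1% of all genes tested. The median log2FC of the list was 0.23. Of the 18 targets that are not members, 3 were called higher and 1 lower, or 22.2% called. A further 3, CRIM1, NUAK2 and DOCK5, were called without horse J. CRIM1 had a log2FC of 1.02 (limma adjusted p = 0.0979) with all horses and 1.505 (0.00505) without horse J. NUAK2 had 1.24 (0.109) and 1.79 (0.0151). DOCK5 had -1.70 (0.0602) and -2.23 (0.0154), and -2.01 (0.0325) under total scaling. With all horses, DESeq2 with a horse term gave adjusted p values of 0.0219, 0.0269 and 0.00739 for CRIM1, NUAK2 and DOCK5 and also called them, and it called IGFBP3 (0.00956), as did edgeR (0.0443), where limma did not (0.0666).

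F3, which encodes tissue factor, the cell-surface starter of coagulation, had 954, 251, 977 and 1457 normalized counts in untreated and 18155, 12733, 15919 and 15443 in treated cells of horses D, J, L and W. The groups were far apart, with a log2FC of 4.33 (SE 0.35) and a limma adjusted p of 0.00203. Unlike ANKRD1 and CTGF, F3 had its largest change in horse J, 50.7-fold, where its untreated level was lowest. CCDC80, a secreted matrix protein, had a log2FC of 2.40 (SE 0.27, limma adjusted p = 0.00397), from 4563 to 16654 normalized counts in untreated to 38562 to 65049 in treated libraries. The endogenous TGFB2 transcript was higher in each horse, by 1.62 to 3.96 on the log2 scale.

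MYOF, a ferlin of membrane repair and trafficking, fell by 0.89 to 1.11 on the log2 scale in each horse. It had 16615, 20482, 22867 and 18873 normalized counts in untreated and 7671, 9851, 10743 and 10155 in treated cells of horses D, J, L and W. Its log2FC was -1.04 with an SE of 0.09 and a limma adjusted p of 0.00205. CYR61 (CCN1), a close relative of CTGF chosen for mention after its values were seen, had a log2FC of 0.22 (95% interval -0.17 to 0.60) and an adjusted p of 0.324. Its untreated libraries ran from 31625 to 49937 and its treated ones from 40337 to 60751 normalized counts, and its sign turned under total scaling, to -0.09.

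**Figure D3:**
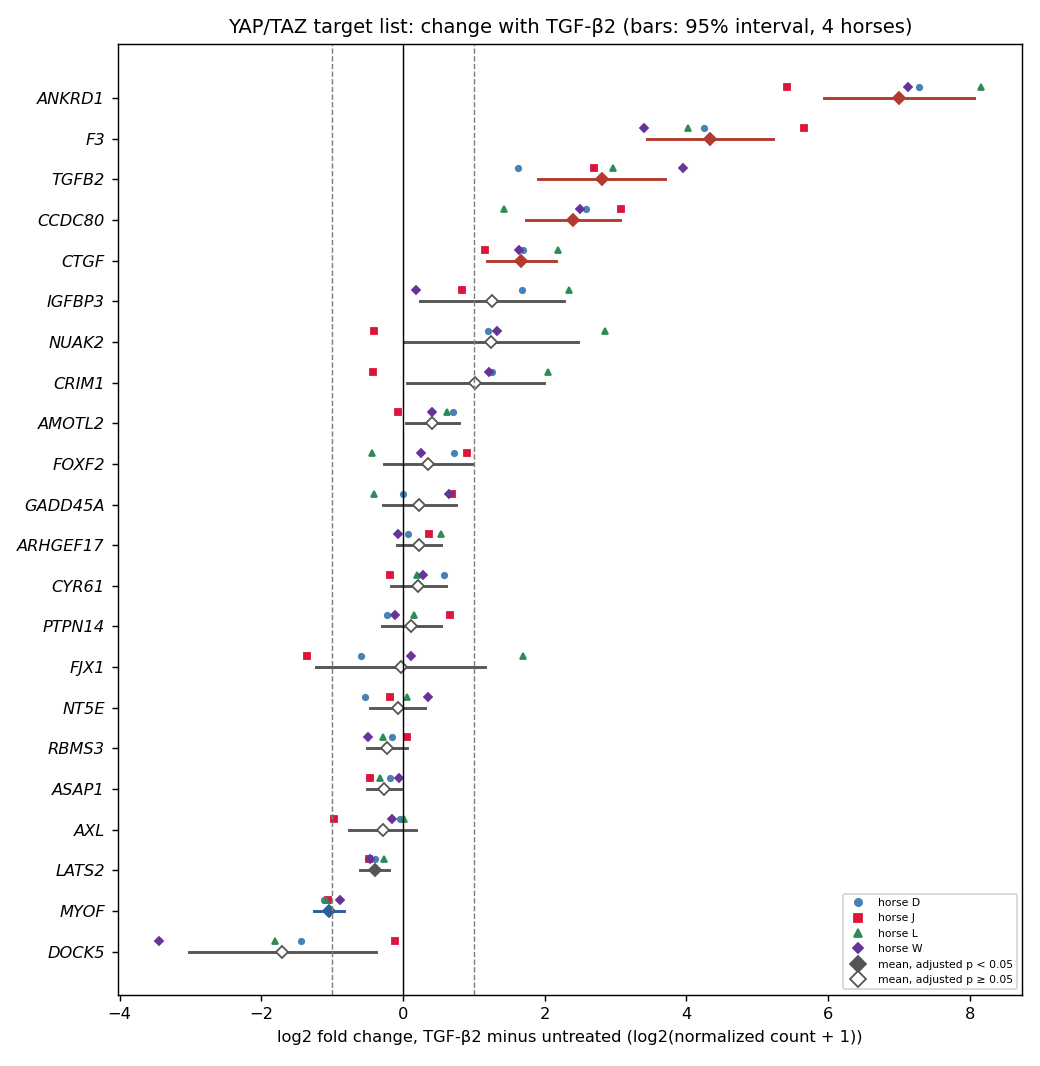
Log2FC (horizontal axis, TGF-β2 minus untreated) of the 22 genes of the YAP/TAZ target list, drawn as for the members, with called genes in red (higher) or blue (lower). A total of 5 genes lay past the upper threshold with an adjusted p under 0.05, from CTGF at 1.67 to ANKRD1 at 7.00, and MYOF lay past the lower one at -1.04. DOCK5 at -1.70, IGFBP3 at 1.26, NUAK2 at 1.24 and CRIM1 at 1.02 also lay past a fold threshold, with open diamonds because their adjusted p was above 0.05.

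CTGF belongs to the CCN family of matricellular proteins, of which 5 of 6 genes had a row. CTGF, already counted among the members, was called higher. WISP2 (CCN5), a family member that lacks the C-terminal domain, was called lower. With CTGF this made 2 of 5 genes or 40.0%, against 14.1% of all genes tested (6.83% higher and 7.31% lower). WISP2 had 10366, 10407, 8414 and 11205 normalized counts in untreated and 3121, 2948, 4598 and 5066 in treated cells of horses D, J, L and W, with no overlap. The log2FC of WISP2 was -1.39 (SE 0.18, limma adjusted p = 0.00583). The other 3, CYR61, NOV and WISP1, did not pass the test.

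Upstream of YAP and TAZ, 24 kinases, adaptors and junction proteins of the Hippo pathway were tested apart from LATS2 and AJUBA. Of these, 2 were called higher (WWC1 and RASSF1), 2 lower (AMOT and FAT4), and 20 were not called, or 16.7% called against 14.1% of all genes. Under total scaling, 1 was called higher (WWC1) and 4 lower (AMOT, FAT4, TAOK3 at -1.05 and MAP4K4 at -1.003). The median log2FC of the list was 0.09. At an adjusted p under 0.05, 2 more were higher and 5 more lower, all short of the fold threshold. This made 4 higher and 7 lower of 24, where 30.9% of all genes passed, 15.7% higher and 15.3% lower. Without the block 2 were higher and 5 lower, and both added higher genes, WWC2 and WTIP, no longer passed (limma adjusted p = 0.135 and 0.149). The core kinases STK3, STK4 and LATS1 and the activators MOB1A and MOB1B had log2FC values from -0.09 to 0.33. None of them passed the main test. Under total scaling STK3 (-0.36, limma adjusted p = 0.0303) and MOB1A (-0.40, 0.0203) passed, both lower, and STK4, LATS1 and MOB1B did not. MOB1B, at 0.33, was higher in all 4 horses with no overlap of the groups (limma adjusted p = 0.0643). DESeq2 gave MOB1B an adjusted p of 0.0431 with a horse term and 0.0400 without it. SAV1, the scaffold of the STK3 and STK4 kinases, had a log2FC of -0.56 and a limma adjusted p of 0.0320.

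AMOT, the founding angiomotin, had 1899, 2469, 4238 and 1523 normalized counts in untreated and 607, 1203, 508 and 417 in treated cells of horses D, J, L and W. The groups did not overlap, and AMOT fell to between 0.120 and 0.487 of the untreated count. Its log2FC was -1.90 (SE 0.32) with a limma adjusted p of 0.0112. The related AMOTL1 had a log2FC of 0.33 (adjusted p = 0.516), with changes of opposite sign between horses, and it was -0.15 without horse J. FAT4, a giant atypical cadherin that acts as a Hippo pathway receptor, had a log2FC of -1.72 (SE 0.35, limma adjusted p = 0.0184). FAT4 changed least in horse J, by -0.39, whose untreated library held 1796 normalized counts against 5459.5 to 8161 in the others, so that the groups overlapped. Without horse J the log2FC was -2.16.

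WWC1 (KIBRA), an adaptor that activates LATS kinases, had 336, 318, 214 and 237 normalized counts in untreated and 995, 601, 1323 and 689.6 in treated cells of horses D, J, L and W, with no overlap. WWC1 had a log2FC of 1.66 (SE 0.28) and the limma adjusted p 0.0111. RASSF1, a scaffold that binds STK3 and STK4, had a log2FC of 1.01 (SE 0.11, limma adjusted p = 0.00374), just past the fold threshold. Under total scaling it was 0.70 and thus short of it.

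Of the 4 tested TEAD and vestigial-like (VGLL) cofactor genes, VGLL2 was called higher and none lower, or 25.0% against 14.1% of all genes tested. Under total scaling TEAD4 was called lower, at -1.002 (limma adjusted p = 0.00424). VGLL proteins compete with YAP and TAZ for TEAD, and VGLL2 is best known from skeletal muscle. It had 6.96, 40.4, 32.0 and 24.4 normalized counts in untreated and 697, 579, 1246 and 615 in treated cells of horses D, J, L and W. The untreated values were low but above the floor in every library. The log2FC of VGLL2 was 5.03 (SE 0.43, limma adjusted p = 0.00226). VGLL3 had a log2FC of 0.92 and VGLL4 of 0.03, and neither passed the test (adjusted p = 0.0594 and 0.922). Without horse J, VGLL3 was called higher, with a log2FC of 1.22 and a limma adjusted p of 0.0129, and DESeq2 with a horse term gave it an adjusted p of 0.0103 at a log2FC of 0.92. VGLL4 was lowest in untreated cells of horse J, at 1868 normalized counts against 2988 to 3085 in the other 3, and without horse J the log2FC of VGLL4 was -0.20.

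**Figure D4:**
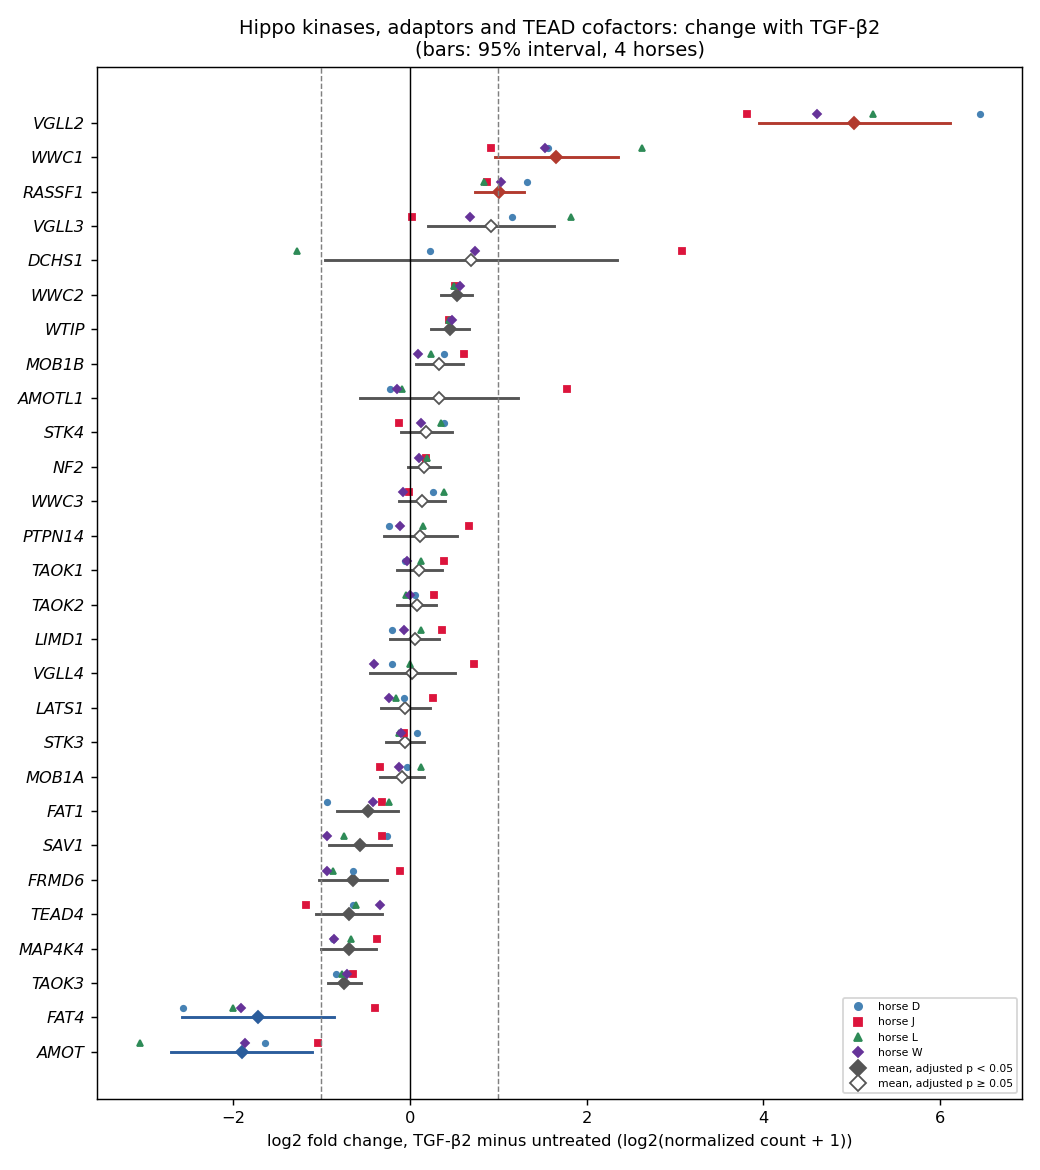
Log2FC (horizontal axis, TGF-β2 minus untreated) of 24 Hippo kinases, adaptors and junction proteins and of TEAD4, VGLL2, VGLL3 and VGLL4, drawn as for the members. VGLL2 at 5.03, WWC1 at 1.66 and RASSF1 at 1.01 were called higher (red) and AMOT at -1.90 and FAT4 at -1.72 lower (blue). The core kinases STK3 at -0.05, STK4 at 0.19 and LATS1 at -0.05 did not pass the test. LATS2 at -0.40 is drawn with the members instead.

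The genes whose pattern over the 8 libraries was most like that of each called member were found by the root-mean-square difference of log2 values after each gene's own mean was subtracted. For CTGF they were LOC111772806 (0.228), CDH2 (0.230) and SEMA4F (0.246). CDH2, which encodes N-cadherin, had 3279 to 5914 normalized counts in untreated and 9723 to 20859 in treated libraries, and SEMA4F, a semaphorin, had 1537 to 1987 and 4314 to 6617. LOC111772806 was low, with 7.54 to 18.9 and 28.9 to 51.7 normalized counts. For ANKRD1 the nearest genes were farther, at 0.700 for SYT1, 0.720 for RGS4 and 0.785 for TCF15. SYT1, a synaptic vesicle calcium sensor, had no read in any untreated library and 24.6 to 131 normalized counts in the treated ones. Its treated value was lowest in horse J and highest in horse L, as for ANKRD1. RGS4 and TCF15 were also lowest in horse J, but highest in horse W (168) and horse D (256). Their untreated values were 0 to 3.37 and 0 to 6.73 normalized counts. Both were highest in horse J, above its floor of 2.02, and under the floor of 3 reads in the other untreated libraries. These genes were selected for their likeness to ANKRD1.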

How the data were processed

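Per the methods and processing notes, the authors used Trimmomatic 0.36 for trimming, STAR 2.5.2b for alignment to EquCab 3.0 and featureCounts (Subread 1.5.2) for unique hits, and deposited normalized counts, a signal equal to the read count divided by 1 size factor per library. Dividing by the library's value of 1 read gave whole reads for 100% of values (within 0.01 reads). Of 15267 rows, 1 without a gene name, with 0.0281% to 0.0531% of reads, was left out.

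The main test was limma 3.58.1 with an intensity trend (R 4.3.3), on values to which 1 was added before the log2, over the 14907 genes reaching 10 normalized counts in 4 libraries or more. The paper names DESeq2's Wald test and no donor term. The horse was a block here because the titles name it and the comparison was set as paired, and deviations of same-horse libraries from their group means correlated at 0.386 to 0.609. Alternatives were no block, other pseudocounts (0.5 and 5), filters (none and 50), total and TMM scaling, edgeR 4.0.16 and DESeq2 1.42.0 (also without the horse) on the recovered reads, other thresholds, and each horse left out. The procedures were tested on simulated data.

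Named with values are the members, the called genes of the other lists, and genes marked as chosen later. The CRIM1, NUAK2, DOCK5, IGFBP3, TAOK3, MAP4K4, WWC2, WTIP, SAV1, LATS1, AMOTL1, MOB1A, MOB1B, VGLL3, VGLL4 and core kinase values were also chosen after they were seen. The members and lists were chosen with earlier results of these data known. Floors cover counting error only. Normalized counts are not divided by gene length, so levels of different genes are not ranked. The promoter motif search was not run, and coordinates of EquCab 3.0 were not used here.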

Additional observations from a re-analysis of the deposited data

Results flagged for a closer look

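RASSF1 in the untreated library of horse L had 1576 normalized counts, far above the other 3 untreated libraries for its spread, with a gap to the nearest of them of 0.840 of the group's whole range. The treated library of horse L lay within the range of the other treated libraries. VGLL4 in the untreated library of horse J had 1868 normalized counts, with a gap of 0.920 of the range below the next untreated library. These were the only such libraries among 54 groups of 4 libraries looked at (27 genes, untreated and treated), where chance gives about 1 in 20.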

How the results depend on the processing

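CTGF and ANKRD1 were called under all 16 alternatives, with log2 fold changes of 1.36 to 1.84 and 6.61 to 7.53, and no member or called gene changed sign in any. Genes near 0 did, with CYR61 at -0.094 and VGLL4 at -0.28 under total scaling, LATS1 at -0.15 to 0.014 with 1 horse left out, AMOTL1 at -0.15 to 0.52 and VGLL4 at -0.20 to 0.17. The replicate block (the horse) did not change which members were called, 2 with it and 2 with no block, and 10 wider-pathway genes were called with and without it. Without a fold threshold, 6 members, 18 wider-pathway genes and 4610 of all genes passed, and at an adjusted p under 0.01 the count over all genes was 1116 against 2108. With 1 horse left out at a time, all genes called ran from 1080 (without W) to 2442 (without J), 1173 without D, and wider-pathway genes from 6 (without D) to 14 (without J). WWC1 and AMOT lost their call without horse D or W and FAT4 without D, L or W, with log2 fold changes of 1.69 and 1.70 for WWC1, -1.99 and -1.91 for AMOT and -1.44 to -1.65 for FAT4 in those fits. All 3 were also not called at an adjusted p under 0.01, which changes the threshold alone. RASSF1 lost its call without D and under total scaling. Without J, CRIM1, NUAK2, DOCK5 and VGLL3 were added and none of the 10 was lost. Under total scaling, 5 wider-pathway genes were called higher and 8 lower, against 6 and 4. Total scaling moved the median gene by -0.30 on the log2 scale, so that 27.6% of calls were higher against 48.3%, and the members' log2 fold changes then ran from -0.71 (LATS2) to 6.69 (ANKRD1). The smaller changes moved with it, YAP1 from -0.38 to -0.69, TEAD3 from 0.61 to 0.30, AJUBA from 0.87 to 0.55 and AMOTL2 from 0.42 to 0.10. Among members, the adjusted p was under 0.05 for YAP1 under 13 alternatives, LATS2 under 12, AJUBA and TEAD3 under 16 and TEAD2 under none. For WWTR1, TEAD1 and AMOTL2 it was so under 1 each. That was total scaling for TEAD1 (-0.49, limma adjusted p = 0.0354) and the fit without horse J for WWTR1 and AMOTL2. YAP1 failed without horse D, L or W, and LATS2 without horse D or W and in limma and DESeq2 without the horse term. The alternatives that change a threshold alone keep the main p-value. Depth did not limit the members, whose lowest value was 103 normalized counts.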
